A study of Mus musculus with 18 samples.

Results

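The comparison set polyadenylated RNA of blood progenitors from the bone marrow of wild-type (WT) mice against that of WT testes, gene by gene on the autosomes. It used 4 of the 18 libraries of the series, 2 of marrow and 2 of testes. Of 30575 autosomal gene IDs, 17746 passed a filter on low counts and were tested. Marrow cells lacked the markers of mature blood lineages and carried cKit, the receptor for stem cell factor, and came from the mice numbered WT.1262 and WT.1266. Testes cells were labelled as dissociated, with no sort mentioned, and came from mice WT.1476 and WT.1477. All 4 mice were labelled wildtype and C57B6/129 hybrid. According to the labels, the study used males and females, aged 6 to 8 weeks, that drank water with 2 mg/ml doxycycline. Since the labels name 4 mice, the replicates are separate animals, with n = 2 per tissue. The sex of the marrow mice is not stated, so it may differ from that of the testes mice. Tissue, mouse, possibly sex, cell sorting and dissociation moved together, so their parts in a difference cannot be told apart, and genes on the sex chromosomes were left out for that reason. The remaining 14 libraries held the intestine of these testes mice and the 3 tissues of mice labelled K9M and K36M, named for a histone H3 lysine replaced by methionine. Among these, the marrow and testes libraries are used only where stated.

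Blood progenitors divide often and hold cells on the way to several lineages at once, each set by its own transcription factors and by receptors for growth factors. In the testis, germ cells pass from dividing spermatogonia through meiosis to haploid spermatids, which replace histones by protamines and build an acrosome and a flagellum. Sertoli cells nurse them inside the tubules and Leydig cells between the tubules make testosterone. Germ cells are also known for using testis copies of many general genes, and for silencing transposons with small RNAs called piRNAs.

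Counts assigned to genes were 21318781 and 21417915 in the marrow libraries and 16122101 and 20577418 in the testes libraries. At least 1 count fell on 19260 and 19830 genes in marrow and on 25792 and 26488 in testes. Markers of both labelled tissues were present. Kit, the sorted receptor, stood at 394 and 412 CPM in the marrow libraries and 32.1 and 25.2 CPM in the testes libraries. Among markers of mature blood cells in the marrow libraries, Cd3e of T cells stood at 0.0423 and 0.290 CPM, and Ly6g of neutrophils at 0.551 and 0.207 CPM. Itgam, found on myeloid cells, stood at 98.6 and 75.3 CPM there. CPM are counts scaled to equal library size with TMM factors (counts per 1e+06), and pairs of values follow the order marrow WT.1262 and WT.1266, then testes WT.1476 and WT.1477. The marrow mice differed from each other more than the testes mice did, by a chi-square over genes, divided by its degrees of freedom, of 22.3 in marrow and 2.26 in testes.

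Promoters of granule protein genes and of piRNA pathway genes are printed here because these lists stood on opposite sides of the comparison and each often held a short motif. They were picked from several lists and motifs that were searched. The windows are the 250 bases before a gene's start, from RefSeq (GRCm38.p6), written 5′ to 3′ on the gene's strand, with motif letters in capitals. Mpo is at chr11:87793534-87793783 on the + strand and Elane at chr10:79886062-79886311 on the + strand, and their capitals mark GAGGAAG, letters typical of sites for the ETS factor PU.1. Mael is at chr1:166238745-166238994 on the - strand and Ddx4 at chr13:112652311-112652560 on the - strand, and their capitals mark CACGTG, an E-box.
Mpo: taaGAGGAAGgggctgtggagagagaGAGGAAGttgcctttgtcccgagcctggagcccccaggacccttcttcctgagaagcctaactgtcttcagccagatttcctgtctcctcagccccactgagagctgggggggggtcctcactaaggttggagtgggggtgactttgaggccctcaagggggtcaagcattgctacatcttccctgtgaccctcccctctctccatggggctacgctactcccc
Elane: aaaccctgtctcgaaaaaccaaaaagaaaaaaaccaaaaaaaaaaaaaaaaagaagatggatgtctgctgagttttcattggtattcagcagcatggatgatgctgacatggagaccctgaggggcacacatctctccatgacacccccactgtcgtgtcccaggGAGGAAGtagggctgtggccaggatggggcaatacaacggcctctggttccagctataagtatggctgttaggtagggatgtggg
Mael: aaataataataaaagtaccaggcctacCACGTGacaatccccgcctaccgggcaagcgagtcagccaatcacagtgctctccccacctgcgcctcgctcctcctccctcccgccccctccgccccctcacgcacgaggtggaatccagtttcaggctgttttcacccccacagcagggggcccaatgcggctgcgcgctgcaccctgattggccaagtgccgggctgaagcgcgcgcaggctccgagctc
Ddx4: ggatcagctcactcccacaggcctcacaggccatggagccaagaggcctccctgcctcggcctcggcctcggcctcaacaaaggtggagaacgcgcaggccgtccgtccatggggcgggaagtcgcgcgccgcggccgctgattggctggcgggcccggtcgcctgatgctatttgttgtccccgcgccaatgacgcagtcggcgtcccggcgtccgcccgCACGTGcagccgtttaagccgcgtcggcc
The motif began 247 and 224 bases before the start in Mpo, 85 in Elane, 223 in Mael and 29 in Ddx4. Searched on both strands, GAGGAAG was in 8 of 22 windows of the granule list (36.4%) and in 10.8% of the 16083 windows of autosomal genes tested. It was in 7 of 28 windows of the spermatid chromatin and sperm tail list, whose genes were higher in testes, and in 5.88% for blood transcription factors. In genes at least 8-fold higher in one tissue, it was in 15.8% of windows for marrow and 9.60% for testes. The palindrome CACGTG was in 10 of 27 windows of the piRNA list (37.0%), against 7.52% of all windows, 7.27% for marrow and 5.82% for testes. The 8 piRNA genes with it were Ddx4, Fkbp6, Mael, Mov10l1, Piwil1, Pld6, Tdrd1 and Tdrd9. Windows of genes at least 8-fold higher in a tissue held fewer CG dinucleotides than usual, with medians of 7 for testes and 8 for marrow against 13 over all windows. A match describes letters in these windows and does not show binding.

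Most autosomal genes differed between the tissues. With edgeR's quasi-likelihood test and a Benjamini-Hochberg adjusted p under 0.05 over all genes, 16036 genes (90.4%) were called. Higher in testes were 9157 (51.6%) and higher in marrow 6879 (38.8%), and the libraries of the tissues did not overlap for 95.4%. At least 8-fold apart were 7476 genes (42.1%), with 5753 (32.4%) higher in testes and 1723 (9.71%) in marrow, and at least 128-fold higher 3246 and 209. Log2 fold changes below are testes minus marrow, ± the standard error (SE), so a negative value is higher in marrow. Their median over all genes was 0.52 and moved from 0.20 to 0.71 with the scaling of the libraries, a shift within which a small difference can change its sign. Since calls were this common, a list's call count alone says little, and it is read against these shares and beside the list's median. By CPM, which does not correct for gene length, the abundant genes of marrow among those at least 16-fold higher there were led by Mpo, myeloperoxidase of neutrophil granules, with 9359 and 7519 CPM in the marrow libraries and 2.28 and 2.62 CPM in the testes libraries. Elane, Prtn3 and Ctsg, proteases of the same granules, were in this group of 10 as well. Its other members were Rack1 and Rps3 of the ribosome, the tubulin Tubb5, the histone variant H2afy, the adhesion protein Tln1 and Plac8, a small protein of myeloid cells. In testes the first was Ldhc, the lactate dehydrogenase of germ cells, at 3666 and 3743 CPM against 1.06 and 1.25 in marrow. Fhl4, a LIM domain protein, had 3615 and 3635 CPM in testes against 0.466 and 0.456 in marrow, and Atp8b3, a lipid flippase, had 3126 and 3113 CPM in testes against 0.0847 and 0.0830 in marrow. Odf2 and Dnah8 of the sperm tail, Akap12, Phf7, the protamines Prm1 and Prm2 and the transition protein Tnp2 completed the 10.

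**Figure D1:**
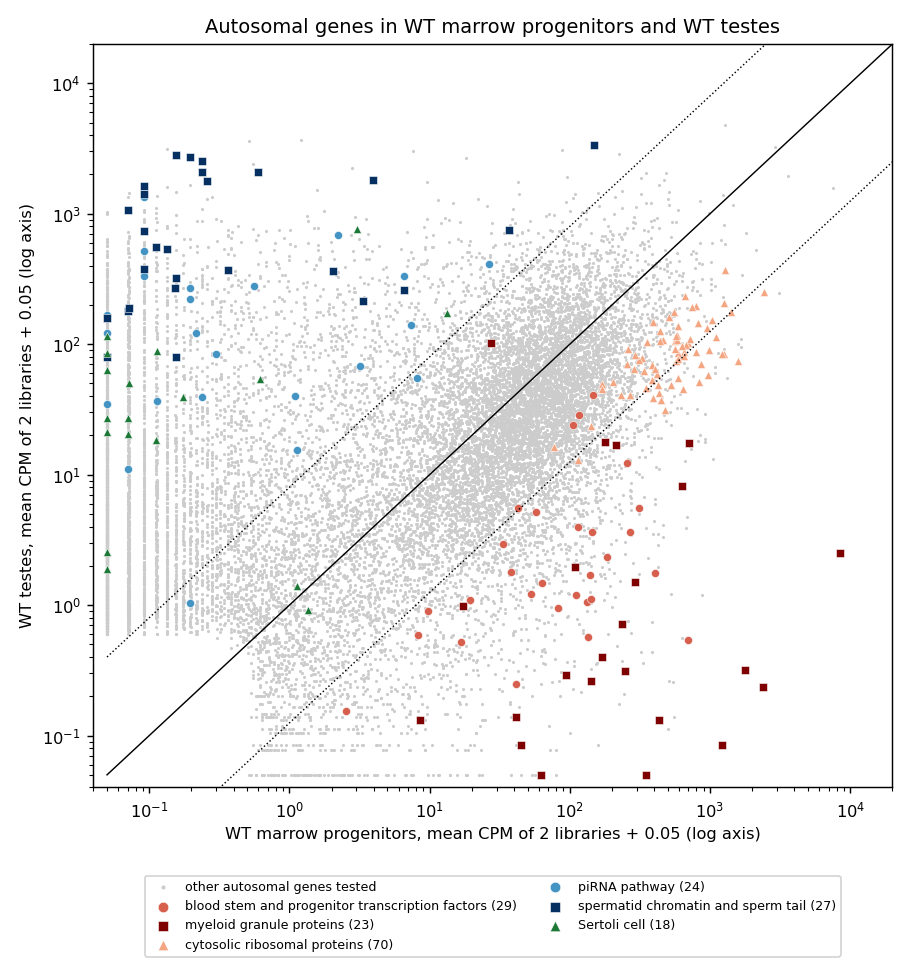
Mean CPM of each autosomal gene tested in WT marrow progenitors (horizontal) and WT testes (vertical), 2 libraries each, on log axes with a small constant added so that 0 can be drawn. The solid line marks equal levels and dotted lines an 8-fold difference. Granule proteins lie at the lower right and genes of spermatid chromatin and sperm tail at the upper left, while the 70 ribosomal proteins lie below the line.

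All 29 transcription factors of blood stem and progenitor cells were higher in marrow, as were 38.8% of all genes tested. At least 8-fold higher were 25 of them, against 9.71% of all genes, and their median log2 fold change was -5.34. Myb, needed for definitive blood formation, stood at 707 and 697 CPM in marrow against 0.484 and 0.491 in testes, a 1421-fold difference (log2 fold change -10.47 ± 0.10, adjusted p = 1.93e-08). Lyl1, a bHLH factor of blood progenitors, stood at 139 and 130.3 CPM in marrow against 0.484 and 0.545 in testes (-8.01 ± 0.13 on the log2 scale). Ikzf1, the lymphoid regulator Ikaros, stood at 395 and 412 CPM in marrow against 2.35 and 1.09 in testes (-7.92 ± 0.21). The smallest difference among the 29 was that of Zfpm1, the GATA1 partner FOG1, at -1.84 ± 0.17. Gata2, a transcription factor of blood stem cells, was 4.41-fold higher in marrow, with 107 and 106 CPM in marrow against 24.3 and 23.9 in testes. Spi1, which encodes PU.1, had 161 and 123 CPM in marrow against 0.761 and 1.36 in testes, and Runx1 had 148 and 117 CPM in marrow against 0.968 and 1.04 in testes.

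Among 25 receptors, 22 were higher in marrow, 17 of them at least 8-fold, with a median log2 fold change of -4.18. Over all genes tested these shares were 38.8% and 9.71%. Csf3r, which receives the granulocyte growth factor G-CSF, stood at 179 and 174 CPM in marrow against 0.899 and 1.20 in testes (165-fold), and Cd93, a lectin-like surface protein, at 479.8 and 375 CPM in marrow against 3.18 and 3.71 in testes (123-fold). The receptor Kit was 14.1-fold higher in marrow (log2 fold change -3.82 ± 0.12, adjusted p = 4.25e-07), and is the receptor used for the sort. Its ligand ran the other way. Kitl, the stem cell factor that Sertoli cells supply to spermatogonia, had 37.97 and 40.7 CPM in testes against 0.0423 and 0.207 in marrow, a 298-fold difference (log2 fold change 8.22 ± 0.30, adjusted p = 7.87e-07). One receptor was higher in testes, C3ar1 of the complement fragment C3a, at 1.73 and 1.31 CPM in testes against 0.169 and 0.166 in marrow. Fcgr3 (156 and 115 CPM in marrow against 17.98 and 65.6 in testes) and Slamf1 (1.40 and 2.57 CPM in marrow against 1.38 and 1.31 in testes) did not pass the test.

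Granule protein genes gave some of the widest differences. Of 23 tested, 22 were at least 8-fold higher in marrow, against 9.71% of all genes tested, and the median log2 fold change was -8.72. S100a8, a calcium-binding protein of neutrophils, had 388 and 306 CPM in marrow and no count in testes, at least 3791-fold higher. Ctsg, cathepsin G, had 1386 and 1047 CPM in marrow against 0.0692 and 0 in testes, a ratio of 39830 (7148 to 1573000) with its 95% counting interval. For Elane the values were 2687 and 2095 CPM in marrow against 0.207 and 0.164 in testes (log2 fold change -13.63 ± 0.24), and for Prtn3 they were 2006 and 1517 CPM in marrow against 0.207 and 0.327 in testes (log2 fold change -12.62 ± 0.26). The exception was Lcn2, an iron-sequestering lipocalin, which was 3.77-fold higher in testes with 90.1 and 115 CPM in testes against 33.5 and 20.99 in marrow (log2 fold change 1.91 ± 0.23, adjusted p = 0.000243). Lcn2 was also among the 8 genes of this list with GAGGAAG in a promoter window. In marrow, 20 of the 23 genes stood lower in mouse WT.1266 than in mouse WT.1262, with a median ratio of 0.78.

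Genes of red cells, platelets and lymphocytes were also mostly higher in marrow, with narrower differences and more exceptions. Of 26 erythroid and heme genes, 23 were higher in marrow, 14 of them at least 8-fold, against 38.8% and 9.71% of all genes tested. The list's median log2 fold change was -3.06. Rhag, the Rh glycoprotein of the red cell membrane, had 48.5 and 96.5 CPM in marrow against 0 and 0.0545 in testes, a ratio of 2385 (428 to 94220). Car1, a carbonic anhydrase of red cells, stood at 371 and 646 CPM in marrow against 0.207 and 0.218 in testes (log2 fold change -11.18 ± 0.51) and Ermap, an erythroid membrane protein, at 160.1 and 362 CPM in marrow against 0.692 and 0.709 in testes (-8.53 ± 0.71). All 26 genes stood higher in marrow mouse WT.1266 than in WT.1262, with a median ratio of 1.88, so marrow means of this list carry a spread between mice. Hemgn, a nuclear protein of blood progenitors, was higher in testes, with 149 and 155 CPM in testes against 36.6 and 74.7 in marrow (log2 fold change 1.45 ± 0.32, adjusted p = 0.00633). This call was lost without a filter on low counts, at log2 1.43 with an adjusted p of 0.124. No gene of GENCODE M21 overlaps Hemgn, but whether counting used strand is not given, so reads of another transcript at this place could not be told from it.

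Of 18 megakaryocyte and platelet genes, 16 were higher in marrow, 12 of them at least 8-fold. Their median was -3.89, or -3.53 with genes of no count at their bound. For this list and the lymphoid list below, the shares over all genes tested were 38.8% and 9.71%. Plek, the protein kinase C substrate pleckstrin, stood at 95.6 and 76.7 CPM in marrow against 1.11 and 1.36 in testes, Mmrn1, a platelet matrix protein, at 16.1 and 16.3 CPM in marrow against 0.207 and 0.0545 in testes, and Gp9 of the von Willebrand receptor at 4.36 and 4.15 CPM in marrow against 0.138 and 0 in testes. Gp1bb, another chain of that receptor, was 2.42-fold higher in testes with 4.01 and 5.18 CPM in testes against 1.44 and 2.37 in marrow, a call lost without testes mouse WT.1477 (adjusted p = 0.108). Gp1bb overlaps the gene Sept5 on the same strand in GENCODE M21, so its counts are uncertain. Vwf, von Willebrand factor, was not called at 28.2 and 32.7 CPM in marrow against 32.8 and 30.97 in testes. Among 18 lymphoid genes, 14 were higher in marrow, 10 of them at least 8-fold, with a median of -3.63. Ighm, the immunoglobulin mu chain, had 583 and 1183 CPM in marrow against 1.04 and 1.25 in testes (log2 fold change -9.57 ± 0.57). Vpreb1 of the surrogate light chain had 5.04 and 1.99 CPM in marrow and no count in testes, at least 38.3-fold higher. Cd79b of the B cell receptor had 31 and 18.4 CPM in marrow against 0 and 0.164 in testes, a ratio of 269 (91.96 to 1308). In contrast with Ighm, 16 of the 18 genes stood lower in marrow mouse WT.1266. Pax5, the B cell commitment factor, was higher in testes (11.3 and 12 CPM in testes against 2.92 and 0.996 in marrow, log2 fold change 2.58 ± 0.43), and Rag1, Ebf1 and Ccr9 did not pass. Pax5 overlaps annotated genes on the other strand, so its counts are uncertain too.

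All 29 genes of leukocyte signalling and cytoskeleton were higher in marrow, 25 of them at least 8-fold, against 38.8% and 9.71% of all genes tested. The list's median was -6.05. Spn, the sialophorin CD43, stood at 572 and 523 CPM in marrow against 0.138 and 0.273 in testes (log2 fold change -11.29 ± 0.15). Cd44, the hyaluronan receptor, stood at 245 and 223 CPM in marrow against 0.207 and 0.436 in testes and Coro1a, an actin-binding coronin of leukocytes, at 592 and 469.8 CPM in marrow against 0.968 and 1.36 in testes. Of 22 genes of the interferon response and MHC class I, 21 were higher in marrow, 16 of them at least 8-fold, at a median of -4.64. Psmb8, a subunit of the immunoproteasome, had 115 and 98.2 CPM in marrow against 0.207 and 0.436 in testes (log2 fold change -8.29 ± 0.22). Ifitm1, a membrane protein against viruses, had 30.4 and 35.7 CPM in marrow against 0.0692 and 0.273 in testes, and Tap1, which carries peptides to MHC class I, 208 and 163 CPM in marrow against 1.18 and 1.20 in testes. The antigen-presenting chain H2-D1 was 46.3-fold and its partner B2m 31.6-fold higher in marrow. Ifit3 was not called at 1.10 and 0 CPM in marrow against 0.899 and 0.436 in testes. In the plot of all lists, these sets lie left of 0 but for Ifit3.

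**Figure D2:**
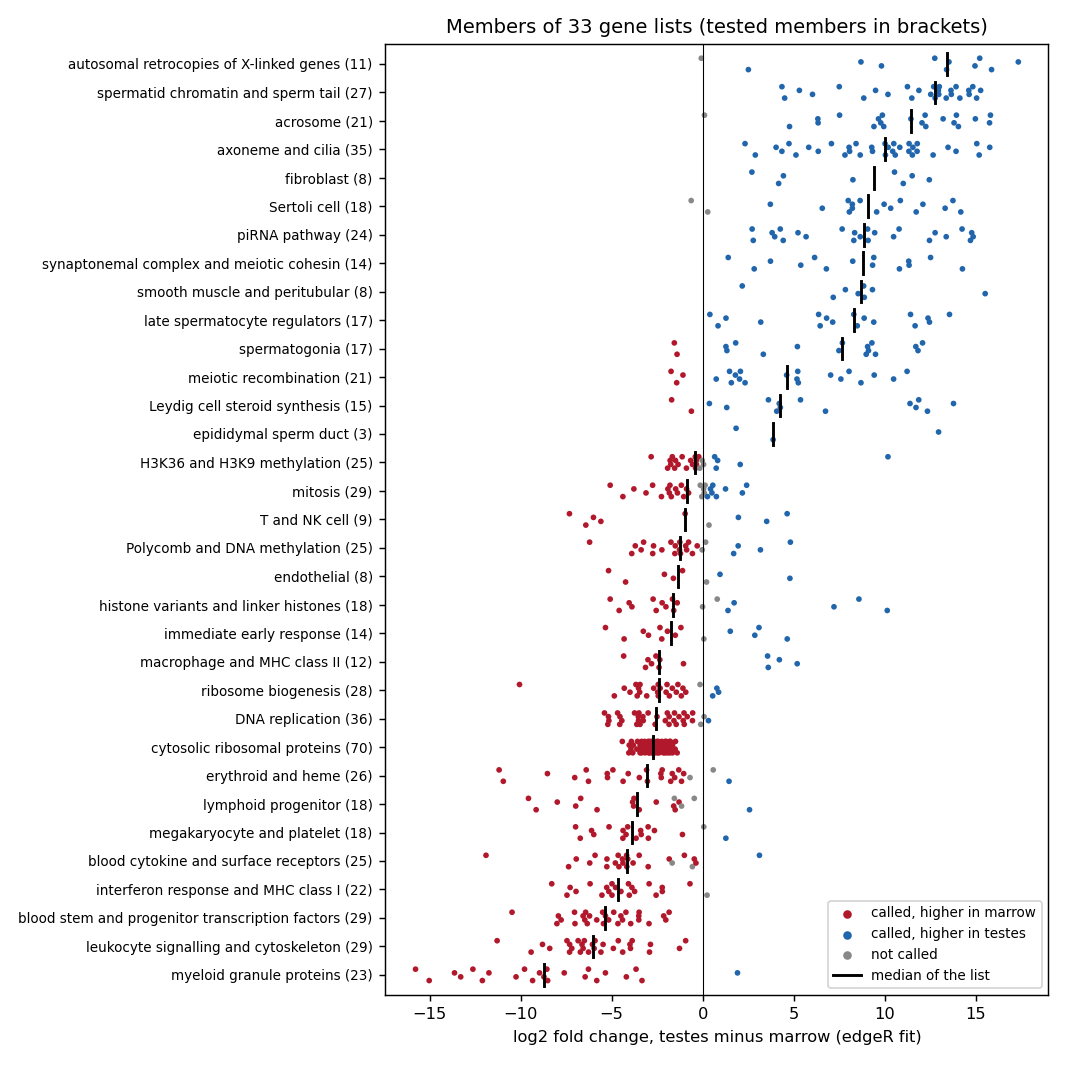
Log2 fold change (testes minus marrow, horizontal) of every tested member of 33 gene lists, ordered by the list's median (black bar), with colour for the called direction. Medians run from -8.72 for granule proteins to 13.40 for autosomal retrocopies, and chromatin and immediate early lists straddle 0.

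All 70 ribosomal protein genes tested were called, from -4.41 to -1.40 on the log2 scale with a median of -2.71 and 21 at least 8-fold, and all 70 were so called under each other scaling of the libraries as well. Summed over the list they took 43920 and 42690 CPM in marrow and 6466 and 6955 CPM in testes. Rps3 had 1573 and 1571 CPM in marrow against 72.8 and 74.8 in testes (log2 fold change -4.41 ± 0.06), Rpl3 982 and 953 CPM in marrow against 59.9 and 56.7 in testes and Rps3a1 849 and 823 CPM in marrow against 47.1 and 54.9 in testes. These genes have many processed copies in the genome, and reads that could not be placed uniquely were not counted, so their levels are uncertain. Reads without a unique alignment were 23.1% and 23.7% of the total in marrow and 15.3% and 15.7% in testes. The part of this in the difference was not tested. Of 28 genes for making ribosomes, 24 were higher in marrow, 10 of them at least 8-fold, at a median of -2.39. For both lists the shares over all genes tested were 38.8% and 9.71%. Myc, the growth regulator, had 318 and 346 CPM in marrow against 0.346 and 0.273 in testes (log2 fold change -10.06 ± 0.13). Srm, which makes spermidine, had 155 and 163 CPM in marrow against 5.88 and 5.18 in testes and Nop56 of the box C/D particle 243 and 275 CPM in marrow against 12.4 and 13.7 in testes. Nop14, Wdr12 and Odc1 were higher in testes. Odc1, ornithine decarboxylase, the step before Srm in polyamine synthesis, had 407 and 389 CPM in testes against 202 and 232 in marrow (log2 fold change 0.88 ± 0.08). In bulk samples, fewer cells of a type and less RNA per cell cannot be told apart.

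DNA replication genes were higher in marrow for 33 of 36, 16 of them at least 8-fold, against 38.8% and 9.71% of all genes tested. Their median was -2.56. Cdt1, which loads the replicative helicase, had 143 and 158 CPM in marrow against 3.18 and 3.93 in testes (log2 fold change -5.39 ± 0.12). Tyms, thymidylate synthase, had 108 and 111 CPM in marrow against 2.42 and 3.38 in testes and Mcm2 of the helicase 402 and 421 CPM in marrow against 10.9 and 11.8 in testes. The helicase subunits Mcm3, Mcm4, Mcm5 and Mcm6 lay between -4.67 and -4.44, and the remaining subunit Mcm7 at -1.55 ± 0.06. Rfc2 of the clamp loader was called higher in testes at 0.32 ± 0.06, a call lost with library size alone as scaling. Rfc1 and Rpa1 were not called. Mitosis genes were divided. Of 29, 16 were higher in marrow, 8 in testes and 5 were not called, with a median of -0.88. The shares over all genes tested were 38.8% for marrow and 51.6% for testes, and 4 mitosis genes were at least 8-fold higher in marrow and none in testes. On the marrow side, Cenpa, the centromere histone, had 115 and 137 CPM in marrow against 3.53 and 3.87 in testes (log2 fold change -5.08 ± 0.14). Cyclin Ccna2 had 194 and 199 CPM in marrow against 9.34 and 9.49 in testes, and the proliferation antigen Mki67 1245 and 1257 CPM in marrow against 93.1 and 89.5 in testes. On the testes side, Kif2c, a microtubule-depolymerising kinesin, had 380.4 and 380.4 CPM in testes against 67.3 and 75.2 in marrow (log2 fold change 2.42 ± 0.07). The centrosome kinases Nek2 and Aurka had 276 and 281 CPM in testes against 59.2 and 63.4 in marrow and 170.2 and 182 CPM in testes against 72.3 and 75.05 in marrow. The number of mitosis genes called higher in testes fell from 8 to 4 in a fit with the 12 marrow and testes libraries of the series and to 2 with all 18. Those larger fits pool the spread over other genotypes and tissues.

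**Figure D3:**
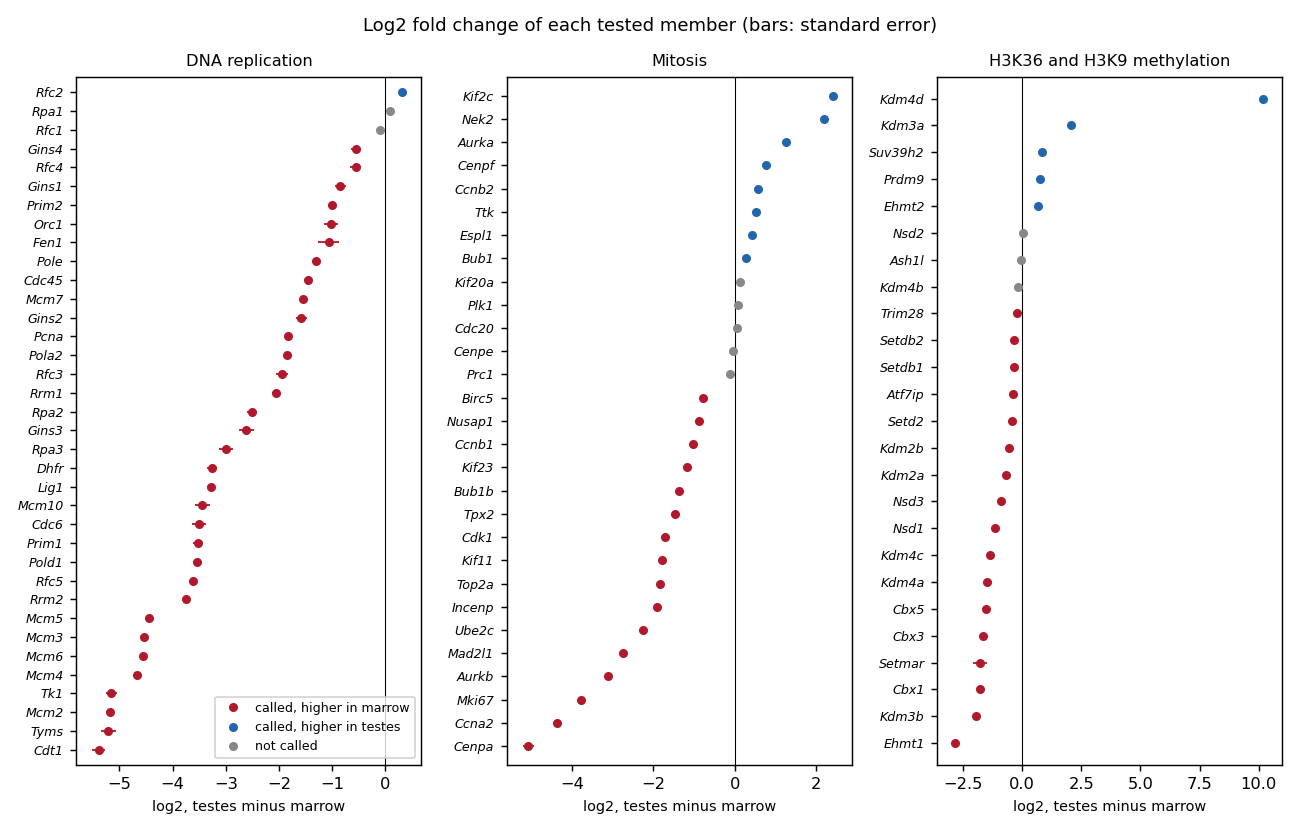
Log2 fold change (testes minus marrow, horizontal) with its standard error for each tested gene of DNA replication, mitosis, and H3K36 and H3K9 methylation. Replication genes lie left of 0 with 1 call to the right, whereas mitosis genes run from -5.08 for Cenpa to 2.42 for Kif2c.

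Spermatogonial genes were higher in testes for 15 of 17, against 51.6% of all genes tested, 12 of them at least 8-fold, at a median of 7.68, or 5.97 with genes of no count at their bound. Id4, an inhibitor of bHLH factors in spermatogonial stem cells, had 25.1 and 28.5 CPM in testes and no count in marrow, at least 429.7-fold higher. Dmrt1, which holds back meiotic entry, had 20.1 and 21.4 CPM in testes and none in marrow, at least 331-fold higher. Dmrtb1, a relative that times the switch to meiosis, had 480.5 and 481 CPM in testes against 0.0847 and 0.166 in marrow (log2 fold change 11.83 ± 0.13). 2 genes ran the other way. Zbtb16, the stem cell factor PLZF, had 17.8 ± 1.89 (SD, n = 2) CPM in marrow and 6.00 ± 1.24 in testes, and Lin28a, an RNA-binding protein, 11.1 and 9.13 CPM in marrow against 3.94 and 3.71 in testes, higher in marrow at -1.56 ± 0.18 and -1.41 ± 0.19. In K36M mice Zbtb16 was higher in testes at 0.71 (adjusted p = 0.0415), and Lin28a stood at 0.19 and was not called (adjusted p = 0.732).

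Meiotic genes were higher in testes with few exceptions, where 51.6% of all genes tested were higher and 32.4% at least 8-fold higher. All 14 genes of the synaptonemal complex and meiotic cohesin were called, 12 of them at least 8-fold apart, at a median of 8.79, or 7.39 at the bound. Hormad1, which marks unpaired axes, had 118 and 127 CPM in testes and no count in marrow, at least 1962-fold higher. Sycp2 of the axis had 564 and 554 CPM in testes against 0.423 and 0 in marrow (log2 fold change 11.34 ± 0.35), and the cohesin Smc1b had 411 and 398 CPM in testes against 0.127 and 0 in marrow, a ratio of 6424 (2198 to 31160). Rec8, the meiotic kleisin, was detected in marrow as well, with 88.05 and 90.96 CPM in testes against 14.5 and 10.7 in marrow (log2 fold change 2.83 ± 0.15). Of 21 recombination genes, 18 were higher in testes, 11 of them at least 8-fold, at a median of 4.61. Mei1, needed for double-strand breaks, had 14.2 and 15.5 CPM in testes and none in marrow. The helicase Hfm1 had 104 and 106 CPM in testes against 0.0847 and 0.207 in marrow, and the crossover ligase Ccnb1ip1 had 8.44 and 9.43 CPM against no count. In K9M mice Ccnb1ip1 stood at a log2 fold change of 0.33 and was not called (adjusted p = 0.0613), and the marrow of those mice had 156 and 185 counts. Mnd1 and Mei4 ran the other way and were higher in marrow, with 9.66 and 8.75 CPM in marrow against 4.15 and 4.53 in testes for Mnd1 and 2.84 and 2.32 CPM in marrow against 1.25 and 0.709 in testes for Mei4.

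All 24 piRNA pathway genes were higher in testes, 22 of them at least 8-fold, against 51.6% and 32.4% of all genes tested. The list's median was 8.86. Mael, a nuage protein, had 1396 and 1457 CPM in testes against 0.0847 and 0 in marrow, a ratio of 34120 (9445 to 281800). Tdrd5, a Tudor protein of the chromatoid body, had 173 and 161 CPM in testes and no count in marrow, at least 2642-fold higher. Tdrd6 had 1377 and 1327 CPM in testes against 0 and 0.0830 in marrow, a ratio of 32180 (8909 to 265800). The Argonaute Piwil1 had 511 and 517 CPM in testes against 0.0423 and 0.0415 in marrow and the helicase Ddx4 687 and 694 CPM in testes against 1.82 and 2.53 in marrow. The difference was smaller for Tdrkh, a Tudor protein at mitochondria, at 2.78 ± 0.12 with 54.9 and 55.4 CPM in testes against 7.33 and 8.71 in marrow. The 17 genes of late spermatocytes were higher in testes too, 14 of them at least 8-fold, at a median of 8.30. Among them, Tcfl5, a bHLH factor of pachytene cells, had 321 and 335 CPM in testes against 0.0423 and 0 in marrow, Ybx2, which stores mRNA, 1327 and 1341 CPM in testes against 0.0423 and 0.415 in marrow, and the meiotic cyclin Ccna1 140.1 and 149 CPM in testes against 0 and 0.0415 in marrow. Cdc25c (0.40 ± 0.11) and Mns1 (0.85 ± 0.19) had the smallest differences.

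Of 21 genes of the acrosome, the sperm's enzyme-filled cap, 20 were higher in testes, each at least 8-fold. Among all genes tested, 51.6% were higher in testes and 32.4% at least 8-fold higher. The acrosome list had a median of 11.44, or 9.95 at the bound, and 7 of its genes had no count in marrow. Spata16 had 352 and 361 CPM and Dpy19l2 347 and 340.5 CPM in testes, at least 5684-fold and at least 5460-fold higher than in marrow, where neither had a count. Both are needed to form the acrosome. Zp3r, an acrosomal matrix protein, had 205 and 195 CPM against none. Gopc, a Golgi protein used in many cells, was not called at 43.3 and 40.1 CPM in marrow against 43.9 and 45.5 in testes. All 27 genes of spermatid chromatin and sperm tail were at least 8-fold higher, with a median of 12.77 (12.53 at the bound). In sum they took 28540 and 28880 CPM in testes and 197.8 and 207.6 CPM in marrow. The protamine Prm2 stood at 2784 and 2814 CPM in testes against 0.0847 and 0.124 in marrow (log2 fold change 14.62 ± 0.12, adjusted p = 1.93e-08). Meig1, needed for spermiogenesis, stood at 1060 and 1089 CPM in testes against 0 and 0.0415 in marrow, and Odf1 of the outer dense fibres at 1644 and 1624 CPM in testes against 0 and 0.0830 in marrow. Odf2, which is also a centriole protein, had counts in marrow as well, with 3379 and 3346 CPM in testes against 144 and 152 in marrow (log2 fold change 4.50 ± 0.07).

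All 35 axoneme and cilia genes were higher in testes, 33 of them at least 8-fold, against 51.6% and 32.4% of all genes tested. The list's median was 10.04. The dynein heavy chain Dnah6 had 358 and 337 CPM in testes and no count in marrow, at least 5507-fold higher. Tekt4 and Tekt3, tektins of the doublet microtubules, had 236 and 229 and 212 and 211 CPM against none. Dnah8 was read in marrow too, with 102.9 and 73.05 CPM there and 3030 and 3114 CPM in testes (log2 fold change 5.13 ± 0.18). In K36M mice Dnah8 stood at 1.52 and was not called (adjusted p = 0.0795). Rfx2 and Rfx3, which switch on cilia genes, stood at 4.74 ± 0.14 and 2.33 ± 0.10. The plot of single libraries shows genes of several lists beside each other.

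**Figure D4:**
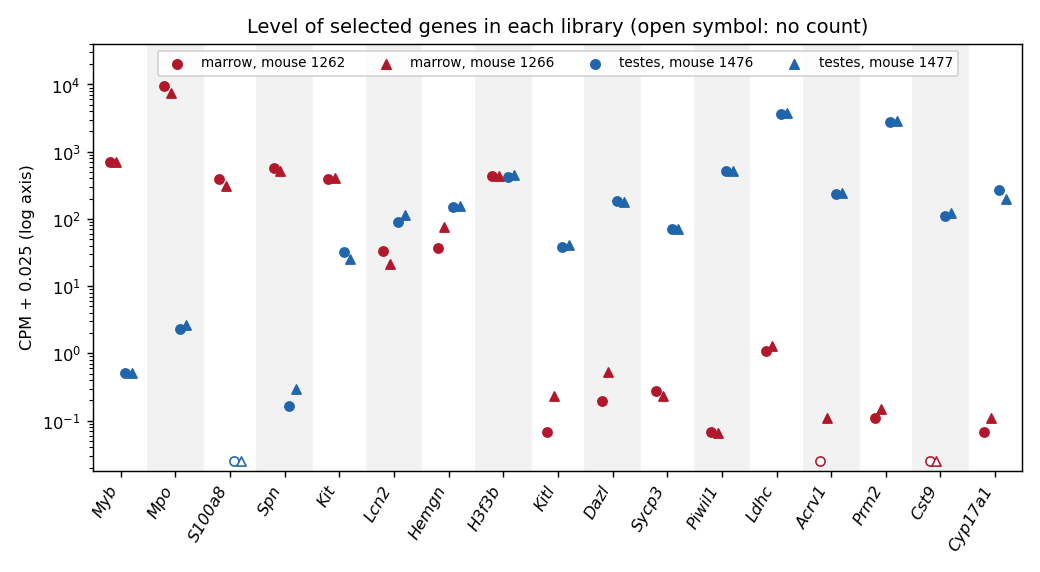
CPM of 17 genes in each of the 4 libraries, on a log axis with a small constant added, with marrow in red, testes in blue and open symbols for no count. H3f3b lies at 437 and 432 CPM in marrow and 423 and 444 CPM in testes, and Lcn2 and Hemgn are higher in testes although they belong to blood lists.

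Genes of the somatic cells of the testis were present besides those of germ cells. Their counts stand against 51.6% of all genes tested higher in testes and 32.4% at least 8-fold higher. Of 18 Sertoli genes, 16 were higher in testes, each at least 8-fold, at a median of 9.11 (8.30 at the bound), and 7 had no count in marrow. The cystatins Cst9 and Cst12 had 109 and 121 and 61.8 and 64.8 CPM in testes, and Cldn11, the claudin of the blood-testis barrier, 82.9 and 87.7 CPM, with no count in marrow for any of them. Amh, made by immature Sertoli cells, was not called at 1.10 and 1.08 CPM in marrow against 1.59 and 1.09 in testes, and neither was the iron carrier Trf at 1.44 and 1.16 CPM in marrow against 1.25 and 0.491 in testes. Of 15 Leydig genes, 13 were higher in testes, 11 of them at least 8-fold, with a median of 4.27. Hsd3b6, a steroid dehydrogenase, had 84.6 and 90.1 CPM and Nr5a1, the regulator SF-1, 30.5 and 34.5 CPM against none in marrow. Cyp17a1, which makes androgens, stood at 267 and 198 CPM in testes against 0.0423 and 0.0830 in marrow. Por and Fdxr, electron donors that many cells use, were higher in marrow at -1.70 ± 0.13 and -0.62 ± 0.10. All 8 smooth muscle and peritubular genes and all 8 fibroblast genes were higher in testes, such as Actg2 at 288 and 297 CPM and Dcn at 35 and 34.4 CPM, both with no count in marrow. Their medians were 8.69 and 9.40, or 7.51 and 6.07 at the bound, and 7 genes of each list were at least 8-fold higher.

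Lists named for endothelial cells, macrophages, and T and NK cells were mixed. Since the marrow cells were sorted progenitors, these calls do not show that such cells were in both samples. Of 8 endothelial genes, Cdh5 (7.401 and 5.78 CPM in testes against 0.381 and 0.0830 in marrow) and Kdr (4.43 and 3.49 CPM in testes against 1.78 and 2.28 in marrow) were higher in testes, and 5 were higher in marrow, led by Pecam1 at 112 and 83.8 CPM in marrow against 3.60 and 1.96 in testes. The median was -1.36, with 1 gene at least 8-fold higher in testes and 2 in marrow, against 32.4% and 9.71% of all genes tested. The Kdr call was lost under library size alone, without either testes mouse and in both larger fits. Among 12 macrophage and MHC class II genes, the complement genes C1qa, C1qb and C1qc and the mannose receptor Mrc1 were higher in testes, with 11.8 and 11.6 CPM in testes against 0.212 and 0.415 in marrow for C1qb. The other 8 were higher in marrow, such as Ciita, the switch for MHC class II, at 4.62 and 6.72 CPM in marrow against 0.277 and 0.273 in testes. The list's median was -2.37, with 4 genes at least 8-fold higher in testes and 3 in marrow. In K36M mice the marrow side of this list fell from 8 to 3 genes. Of 9 T and NK cell genes tested, 3 were higher in testes and 5 in marrow (51.6% and 38.8% over all genes), 2 and 4 of them at least 8-fold, at a median of -0.96. The list summed to 12.2 and 15.9 CPM in marrow and 11.3 and 18.5 CPM in testes. Cd3d had 4.22 and 10.6 CPM in testes against 0.381 and 0.207 in marrow, a call lost without marrow mouse WT.1262 (adjusted p = 0.12) or WT.1266 (adjusted p = 0.131). Lck, at 4.83 and 6.64 CPM in marrow against 3.18 and 2.73 in testes, was higher in marrow, but not with DESeq2 or without either testes mouse. Of 9 epididymal genes matched to an ID, 3 passed the filter on low counts, and all 3 were higher in testes. Cst8 had 209 and 223 CPM in testes and 0 and 1 counts in marrow, so it passed the filter through testes alone. With genes let in this way, the count of 3 says little about the duct. The protease inhibitor Spint1 had 4.84 and 6.33 CPM in testes against 0.381 and 0.373 in marrow. For Rnase10 the values were 4.98 and 4.36 CPM in testes against 1.69 and 0.913 in marrow. Lcn5 and Lcn8, which mark that duct, had no count.

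Germ cells are known for testis versions of general proteins, and 28 such pairs were compared. The germline member was higher in testes in all 28, against 51.6% of all genes tested. Since the pairs were written from known testis forms, with earlier results of these data known, that count was likely beforehand. The general member was higher in marrow in 21 pairs (38.8% over all genes), higher in testes in 3 and not called in 4. Gapdh and Gapdhs, glycolytic enzymes, went opposite ways. Gapdh had 642 and 581.7 CPM in marrow against 41.4 and 41.99 in testes (log2 fold change -3.87 ± 0.08), and Gapdhs had 3.43 and 4.36 CPM in marrow against 1788 and 1816 in testes (log2 fold change 8.85 ± 0.12). Per kilobase of exon, Gapdhs made up 99.1% of the pair's level in both testes libraries and 1.35% and 1.89% in marrow. The cyclins Ccna2 and Ccna1 and the chaperones Hspa8 and Hspa2 went the same way, with Hspa8 at -3.92 ± 0.10 and Hspa2 at 6.37 ± 0.07. Psma7 and Psma8 of the proteasome core stood at -3.26 ± 0.07 and 3.88. For lactate dehydrogenase the general gene did not give way. Ldha was higher in testes too, with 858 and 878 CPM in testes against 524 and 551 in marrow (log2 fold change 0.69 ± 0.06), below Ldhc, which made up 89.9% of the pair per kilobase in both testes libraries. Brd2 (0.33 ± 0.05) and the TATA-binding protein Tbp (1.64 ± 0.06) were the other general members called higher in testes, and Brd2 went to 0.01 with library size alone. Hspa1a, Ybx1, Ppp3ca and Ubqln1 were not called. Of these, Hspa1a was near the floor, with 15 and 7 counts in marrow and 7 and 14 in testes, so its share in the pair is uncertain. Reads without a unique alignment were not counted. A member with near-identical copies in the genome may thus be undercounted, which would raise the share of the other. The size of this was not tested.

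The germline member made up more than 50% of the pair per kilobase in both testes libraries in 25 of 28 pairs. The pairs below that were Eno4 with Eno1, Aldoart1 with Aldoa and Calr3 with Calr. In marrow the germline member was above 50% per kilobase in 2 pairs, Hspa1l over Hspa1a, which had few counts, and Tbpl1 over Tbp. The length is that of all annotated exons of a gene joined, 13580 bases for Tbp and 3271 for Tbpl1. By CPM, Tbp stood above Tbpl1 in marrow, at 57.3 and 54.9 against 43.8 and 36.7. In testes, Rec8 and Dnmt3l were above 50% per kilobase but stood below Rad21 and Dnmt3a by CPM. The shares thus depend on these lengths, and also on how many reads of each member could be placed uniquely. Ppp3r2, Slc25a31 and Cyct, testis forms of a calcineurin subunit, an ADP/ATP carrier and cytochrome c, had no count in marrow, with 568 and 565, 71.5 and 70.7 and 58.6 and 58.5 CPM in testes. Aldoa and Eno1 were higher in marrow by small amounts, -0.31 ± 0.06 and -0.29 ± 0.07, which were not called with DESeq2 size factors. Papola, the general poly(A) polymerase, at -0.35 ± 0.05, was not called with DESeq2.

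**Figure D5:**
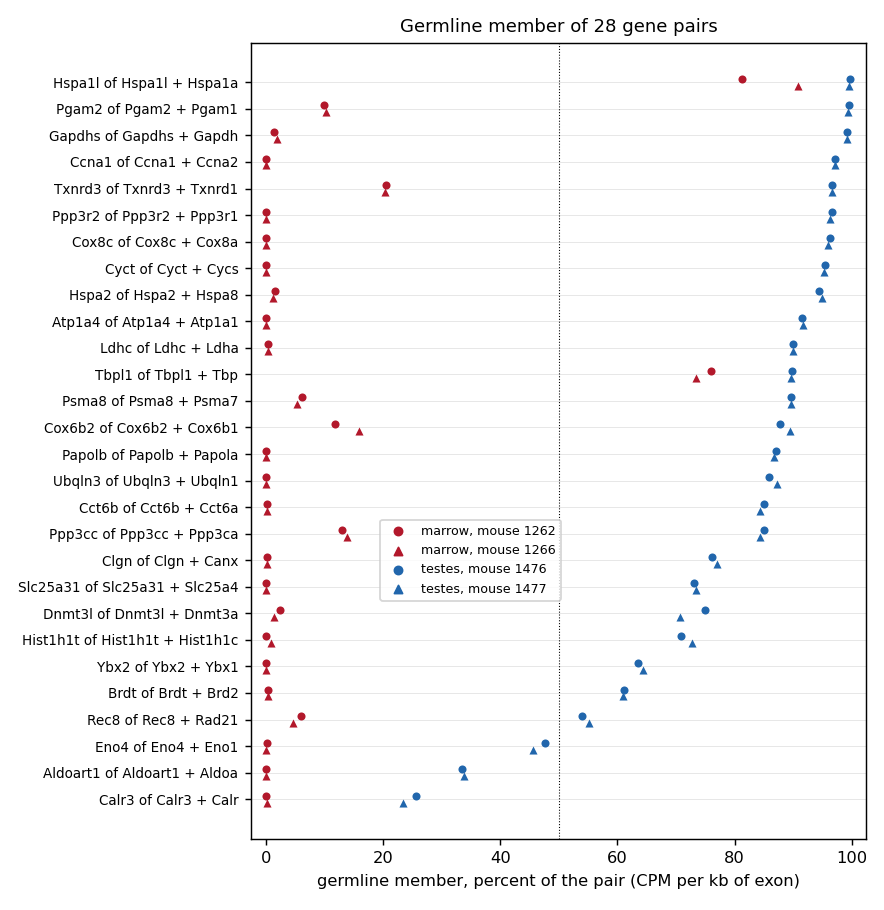
Level of the germline member as a percentage of the summed level of both members of a pair, in CPM per kilobase of exon, for 28 pairs in the marrow libraries (red) and the testes libraries (blue). The dotted line is at 50%. In testes 25 pairs lie above it in both libraries, and in marrow 2.

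Autosomal copies of X-linked genes are thought to serve germ cells while the X chromosome is silent in meiosis. Of 11 such retrocopies tested, 10 were higher in testes, against 51.6% of all genes tested. Their median was 13.40, or 11.63 at the bound, and 6 of the list had no count in marrow. Pgk2, phosphoglycerate kinase, had 1021 and 1039 CPM in testes, at least 16400-fold higher than in marrow. The centrin Cetn1 and the ubiquitin-like Ubl4b had 374 and 368 and 229.6 and 243 CPM, also with no count in marrow. Cstf2t, a polyadenylation factor, had 67.7 and 69.3 CPM in marrow against 64.7 and 65.4 in testes and was not called (log2 fold change -0.07 ± 0.07, adjusted p = 0.335). With library size alone it was called higher in marrow. The X-linked parents of these copies were not compared.

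The mutants of the series concern lysines of histone H3 that are methylated, and the enzymes of that system were read in both tissues. Of 25 genes for H3K36 and H3K9 methylation, 17 were higher in marrow, 5 in testes and 3 were not called, with a median of -0.40. Over all genes tested, 38.8% were higher in marrow and 51.6% in testes. Of the 25, 1 was at least 8-fold higher in testes and none in marrow. That was the demethylase Kdm4d, with 126 and 131 CPM in testes against 0.0847 and 0.124 in marrow (log2 fold change 10.18 ± 0.15, adjusted p = 3.58e-08). Kdm3a, a demethylase of H3K9 needed in spermatids, had 338 and 344 CPM in testes against 85.2 and 77.9 in marrow (log2 fold change 2.06 ± 0.07), and the methyltransferase Suv39h2 40.05 and 31.8 CPM in testes against 19.6 and 20.9 in marrow (log2 fold change 0.82 ± 0.14). On the marrow side, the H3K9 methyltransferase Ehmt1 had 126 and 117 CPM in marrow against 17.02 and 17.2 in testes (log2 fold change -2.83 ± 0.08), while its partner Ehmt2 was higher in testes at 0.66 ± 0.06. Setd2, which trimethylates H3K36, was higher in marrow at -0.40 ± 0.07. Among 25 Polycomb and DNA methylation genes, 19 were higher in marrow, 5 of them at least 8-fold, at a median of -1.25. Of the rest, 4 were higher in testes, 2 of them at least 8-fold, and 2 were not called. The 8-fold shares over all genes tested were 9.71% for marrow and 32.4% for testes. Phf19 had 28.5 and 26.3 CPM in marrow against 0.207 and 0.491 in testes and its relative Phf1 12.3 and 16.4 CPM in marrow against 129.9 and 129 in testes, so these accessory proteins of Polycomb complex 2 went opposite ways. The demethylases of cytosine Tet1 and Tet3 were higher in marrow at -3.89 ± 0.17 and -3.70 ± 0.08. Dnmt3a was higher in marrow at -2.24 ± 0.12 and its germline cofactor Dnmt3l in testes at 4.82 ± 0.32, with 11.6 and 10.1 CPM in testes against 0.508 and 0.249 in marrow.

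Histone H3.3 is made from 2 genes. H3f3a had 188 and 164 CPM in marrow against 66.8 and 66.9 in testes and was higher in marrow (log2 fold change -1.40 ± 0.08, adjusted p = 7.05e-06). H3f3b had 437 and 432 CPM in marrow against 423 and 444 in testes and was not called (log2 fold change -0.0046 ± 0.056, adjusted p = 0.941), and with DESeq2 size factors it was called higher in testes at 0.18. Of 18 genes of histone variants and linker histones, 11 were higher in marrow and 5 in testes, 4 and 3 of them at least 8-fold, with a median of -1.62. Over all genes tested, 38.8% were higher in marrow and 51.6% in testes, and 9.71% and 32.4% were at least 8-fold higher. H2afy, macroH2A1, had 1201 and 976 CPM in marrow against 65.02 and 67.5 in testes and H2afj 81.7 and 78.8 CPM in marrow against 4.77 and 6.00 in testes. On the testes side, Hist1h2ba, a testis H2B, had 6.64 and 7.31 CPM and no count in marrow, and the linker histone H1fx had 26.4 and 30.5 CPM in testes against 9.57 and 7.63 in marrow. Most replication histones lack a poly(A) tail, so the counts of Hist1h1 genes in polyadenylated RNA may hold only part of their transcripts.

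Immediate early genes, which respond within minutes to stress such as tissue dissociation, were divided. Of 14 tested, 9 were higher in marrow, 4 in testes and 1 was not called, with a median of -1.72. Over all genes tested these shares were 38.8% and 51.6%, and 3 of the 14 were at least 8-fold higher in marrow and 2 in testes. Fos had 42.95 and 56.7 CPM in marrow against 1.59 and 0.927 in testes (log2 fold change -5.34 ± 0.26), Ier2 59.2 and 59.5 CPM in marrow against 3.53 and 2.51 in testes and Junb 31.3 and 31.2 CPM in marrow against 3.04 and 3.44 in testes. Nr4a1, a nuclear receptor, had 54.4 and 51.9 CPM in testes against 1.52 and 2.70 in marrow (log2 fold change 4.65 ± 0.23). Klf2 and Klf4 had 23.7 and 22.2 CPM in testes against 2.25 and 3.11 in marrow and 241 and 230.3 CPM in testes against 37.4 and 27.3 in marrow. In K36M mice the split was 7 higher in testes and 3 in marrow. Sorting and dissociation differed between the tissues, and their part in these values was not tested.

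The same tissue contrast could be read in other mice of the series. In 4 libraries of K9M mice, 94.1% of the 5753 genes at least 8-fold higher in WT testes and 96.8% of the 1723 in WT marrow were called in the same direction, and 1 of each in the opposite direction. In 4 libraries of K36M mice these shares were 83.1% and 90.6%, with 11 and 2 genes opposite. Over all called genes of either size, the shares were 93.5% and 94.5% in K9M mice and 75.2% and 79.2% in K36M mice, with 224 and 244 genes opposite in the latter. Some genes that WT marrow lacked were read in the marrow of those mice. Of 2162 autosomal genes with at least 10 counts in both WT testes libraries and none in WT marrow, 4 had at least 10 counts in both K9M marrow libraries and 14 in both K36M marrow libraries. Chosen after these values were seen, the meiotic gene Ccnb1ip1 had 156 and 185 counts in K9M marrow and 0 and 2 in K36M marrow. The piRNA gene Tdrd5 had 24 and 29 in K9M marrow and none in K36M marrow. Hecw1, a ubiquitin ligase, had 217 and 193 counts in K36M marrow and 1 and 0 in K9M marrow. Genes not tested in those mice count as not called, and those mice carry a genotype that the WT mice do not. With 2 libraries per tissue the fit had 2 residual degrees of freedom. It used a single spread per gene for both tissues, although the marrow mice differed more. The chi-square per degree of freedom was 22.3 in marrow and 2.26 in testes.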

How the data were processed

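RNA-seq of 2 WT marrow and 2 WT testes libraries was compared. Raw counts of reads per gene were deposited. Per the submitters' processing notes the tools were STAR and HTSeq and the build mm9, and tool versions are not given in the sources used here. Per the labels' protocols, libraries came from the SMARTer v3 kit and a HiSeq2500. Each file listed 37620 gene IDs. Entries that name no gene stayed out of library sizes and tests: reads in no feature were 10.2% and 13.4% of the total in marrow and 25.9% and 26.0% in testes, and ambiguous reads 2.21% to 2.58%. Whether counting used strand is not given, so overlapping and antisense genes, and genes with near-identical copies, are uncertain. Symbols, gene types, chromosomes and exon lengths were matched by gene ID to GENCODE M21 (GRCm38, another build), which named 32897 IDs, and no coordinates were moved between builds. Printed promoters come from RefSeq.

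In R 4.3.3, counts were filtered with filterByExpr, scaled by TMM and fitted with the robust quasi-likelihood method of edgeR 4.0.16 on 2 group means. P-values were adjusted by Benjamini-Hochberg over all 19426 genes tested, and autosomal genes were reported. Counts ranged from 16122101 to 21417915 per library. Where a tissue had no count of a gene, a fold difference is a bound that takes 3 counts for that tissue's 2 libraries together, and with 1 to 3 counts it is a ratio with an exact 95% counting interval. Bounds and intervals cover counting error only. The test was tested on simulated data of 18791 genes, drawn from the library sizes and each gene's mean over both tissues. It recovered 65.7% of 2-fold, 98.5% of 4-fold and 98.5% of 8-fold changes, and 29 of 204 calls were false. Changes were put into a small part of the genes, all above a minimum of counts. In the real libraries 90.4% of autosomal genes were called, so these shares do not carry over to this contrast.

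The genes and lists were chosen with earlier results of these data known, and the 33 lists and 28 pairs were written from general knowledge. The rule named the 10 most abundant protein-coding genes per tissue at least 16-fold higher there, up to 3 called members per list and direction whose mean log2 CPM was 1 or more, both members of each pair, and Kit, Kitl, H3f3a and H3f3b. Other genes named were chosen after their values were seen, except that list members without a count in a tissue could be named, and some genes are not reported here. Of 726 symbols in the lists, 715 matched an ID. Alternatives were other scaling, filters and tests (DESeq2 1.42.0, limma-voom in limma 3.58.1, glmTreat), an adjusted p of 0.01, larger fits, each mouse left out, and the same contrast in K9M and K36M mice. Leaving out a mouse assumes that the lone library varies like the other group. Tables and figures were made with Python 3.11.15, pandas 2.3.3, numpy 2.4.6, scipy 1.17.1 and matplotlib 3.10.9.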

Additional observations from a re-analysis of the deposited data

How the results depend on the processing

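No paired analysis was possible because the marrow and testes groups share no mouse number. Over all autosomal genes, counts of called genes stayed within 1.5 times the values given under every alternative run. Counts within single lists moved by more in 50 cases and stayed within it in 1270. Of the 50, 15 were in K36M mice and 10 under glmTreat. Over all genes, the share of calls on the testes side ranged from 52.8% (library size alone) to 61.3% (glmTreat against a 2-fold difference) around 57.1%. Without a marrow mouse the replicate spread came from the testes pair, and without a testes mouse it came from the marrow pair. Call counts of those fits therefore do not measure robustness. The number of genes seen in testes only, 2162, fell to 1310 when 0 counts were asked of all 6 marrow libraries. For marrow only, 99 became 165 with at least 5 counts, 63 with at least 20 counts and 34 with 0 counts in all 6 testes libraries; fewer or more genes meet each rule by its construction. Some log2 values changed sign. The log2 of H3f3b went to 0.18 with DESeq2 size factors and with DESeq2, 0.0019 with upper quartile scaling, 0.0035 with TMM without the 100 most abundant genes of each tissue, 0.051 with a CPM filter, 0.043 without testes mouse WT.1476 and 0.080 in K9M mice. With library size alone Ybx1 stood at -0.27, Ppp3ca at -0.11 and Ubqln1 at -0.20, and without marrow mouse WT.1266 Hspa1a stood at -0.013; without the other marrow mouse it stood at 1.10, and H3f3b without marrow mouse WT.1266 at -0.028. In K36M mice the sign changed for Nek2 (-1.02), Aurka (-1.14), Zbtb16 (0.71), Lin28a (0.19), Cd163 (0.28), Rnase10 (-0.81), Ldha (-0.14), Brd2 (-0.71), Ybx1 (-0.43), Aldoa (0.44), Slc25a4 (0.44), Eno1 (0.41) and Ubqln1 (-0.47). Of these 13, Zbtb16 and Brd2 passed the test in K36M mice (adjusted p = 0.0415 and 0.0370) and the other 11 were not called. The causes were not tested. Depth limits statements on genes without a count in a tissue to the bounds given.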

Other observations

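Classes of genes differed between the tissues. Of 1403 long non-coding RNA genes tested, 1094 (78.0%) were higher in testes and 172 (12.3%) in marrow, with a median log2 fold change of 5.85. For 15326 protein-coding genes these shares were 49.3% and 41.5%, with a median of 0.28, and for 799 pseudogenes 55.3% and 28.2%, with a median of 1.67. A gene could pass the filter on low counts through a single tissue, so these shares and medians depend on which tissue let genes in. Autosomal long non-coding genes with any count numbered 1169 and 1271 in the marrow libraries and 2302 and 2361 in the testes libraries. Long non-coding genes took 0.464% and 0.533% of autosomal counts in marrow and 1.41% and 1.43% in testes. Counted in both mice of one tissue, with at least 10 counts each, and in neither mouse of the other, 2162 autosomal genes were seen in testes only and 99 in marrow only. The testes set held 1445 protein-coding and 519 long non-coding genes. By CPM it was led by Pgk2, then Mroh4 (1000 and 1020 CPM) and Pabpc2 (1005 and 986 CPM), a poly(A)-binding protein of germ cells.

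Genes named in this paragraph were chosen after their values were seen. Besides neutrophil genes, the marrow-only set held genes known from basophils and mast cells. The proteases Mcpt8 and Prss34 stood at 63.9 and 43.6 and at 77.6 and 51.6 CPM, and the IgE receptor chains Ms4a2 and Fcer1a at 42.4 and 34.2 and at 12.9 and 10.2 CPM. Each of these was lower in marrow mouse WT.1266 than in WT.1262. Immunoglobulin segments of the set differed between the marrow mice in both directions. Iglv1 had 38 counts in mouse WT.1262 and 428 in mouse WT.1266, whereas Igkv11-106 had 331 and 26, and Ighv6-6 had 132 and 13. No test between the 2 marrow mice is possible, since each is a single library.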
